A study of Homo sapiens with 2 samples.

Results

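The genes described are antisense RNAs, taken as the gene rows whose symbol ends in -AS with or without a number, together with the genes they are named after. Of 62700 gene rows, 1851 had such a symbol. In 1118 of them both libraries were at 0, 394 had 1 to 19 counts over both libraries, and 339 had 20 or more. HECW2-AS1 (62 counts with the SMC1A guide, 63 with the control guide) was left out by the rule that chose the members, which leaves 338 antisense RNAs. The gene whose symbol remains when the -AS ending is removed was called the sense partner, and 281 antisense RNAs had a partner with 20 or more counts. The rule used the summed counts of both libraries and no ratio between them, but these genes were chosen for description with results of the same data known.

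RNA was measured in K562 cells, an established human line from chronic myeloid leukemia that has erythroid traits, in 1 library with a guide RNA against SMC1A and 1 library with a control guide. Both libraries come from cells labelled WT with the genotype E50_dCas9-KRAB, so that the repressor dCas9-KRAB, which lowers transcription at the promoter its guide names, was present in both. E50 is not explained in the labels. Per the labels' protocols, both guide vectors came by lentivirus with a blue fluorescent protein, selection used 1 µg/ml puromycin from day 2 to day 6, brightly blue cells were sorted, and poly(A) RNA from 1 µg of input was made into strand-preserving libraries read in pairs of 100 bases. Each guide has 1 library, so there is no replicate, no p-value is given, and every interval covers counting error only.

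SMC1A encodes a core subunit of cohesin, the ring complex that holds sister chromatids together and extrudes chromatin loops. An antisense RNA is transcribed from the strand opposite another gene, either across that gene's body or away from its promoter in the other direction. Such RNAs are known to act on their sense gene in some cases, by recruiting chromatin factors, by interfering with its transcription or by pairing with its transcript, and in other cases they are transcribed beside it with no known effect. Many of them are expressed at low levels, and a poly(A) library holds only those with a poly(A) tail.

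The library totals were 16864207 counts with the SMC1A guide and 18349209 with the control guide. SMC1A itself had 288 counts (16.3 CPM, the count relative to the scaled library size) with its guide and 8077 counts (460.4 CPM) with the control guide, which is 3.55% of the control value (95% interval 3.14 to 3.99). The erythroid and fusion-gene markers that define K562 were present in both libraries, with 1969 and 2880 counts of GATA1 and 2572 and 3075 of BCR with the SMC1A guide and the control guide. MS4A1, CD2, CD8A, S100A8 and KRT5, which mark B cells, T cells, monocytes and epithelium, were at 0 in both. CD3D (324 and 255 counts) and EPCAM (2019 and 2978 counts), from the T-cell and epithelial lists, were not. Among the K562 markers the globin genes moved in different directions, with HBE1 at a log2 ratio of 0.62 and HBG2 at -1.68. Their part in the values below was not tested. In these bulk samples fewer cells of a type and less RNA per cell cannot be told apart.

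The start regions of 4 antisense RNAs on which the results turn are printed first. They belong to the highest ratios (CRADD-AS1 and EPHA1-AS1), to the lowest ratio (STEAP1B-AS1), and to the lowest ratio among the antisense RNAs with 100 or more counts (PITX1-AS1). Each runs from 250 bases before to 50 bases after the RefSeq start, on the strand of the antisense RNA, in RefSeq's GRCh38.p14. Capitals mark the 4 motifs, each searched on both strands. They are CCAAT, which reads ATTGG on the other strand, the TATA-type motif TATAAA, which there reads TTTATA, the E-box CACGTG, which reads the same on both, and the GATA-type motif TGATAA, which there reads TTATCA. No match overlapped another in these windows.
CRADD-AS1, chr12:93737774-93738073, minus strand: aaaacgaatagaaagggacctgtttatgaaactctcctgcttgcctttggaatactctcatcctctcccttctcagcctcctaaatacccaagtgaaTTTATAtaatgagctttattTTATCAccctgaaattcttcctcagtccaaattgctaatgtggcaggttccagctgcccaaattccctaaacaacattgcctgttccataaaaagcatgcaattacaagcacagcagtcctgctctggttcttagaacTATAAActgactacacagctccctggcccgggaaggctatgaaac
EPHA1-AS1, chr7:143407563-143407862, plus strand: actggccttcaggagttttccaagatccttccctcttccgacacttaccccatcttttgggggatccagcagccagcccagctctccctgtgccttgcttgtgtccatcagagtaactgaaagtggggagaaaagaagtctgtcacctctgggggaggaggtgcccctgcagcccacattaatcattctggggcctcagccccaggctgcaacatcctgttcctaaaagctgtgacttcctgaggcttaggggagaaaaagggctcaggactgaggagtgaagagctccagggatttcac
STEAP1B-AS1, chr7:22563087-22563386, plus strand: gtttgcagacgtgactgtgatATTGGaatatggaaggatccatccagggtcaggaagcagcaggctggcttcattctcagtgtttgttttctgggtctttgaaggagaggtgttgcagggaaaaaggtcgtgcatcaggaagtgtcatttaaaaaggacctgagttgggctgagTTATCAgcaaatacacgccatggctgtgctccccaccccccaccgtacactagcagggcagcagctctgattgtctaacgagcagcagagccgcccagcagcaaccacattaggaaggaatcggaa
PITX1-AS1, chr5:135033024-135033323, plus strand: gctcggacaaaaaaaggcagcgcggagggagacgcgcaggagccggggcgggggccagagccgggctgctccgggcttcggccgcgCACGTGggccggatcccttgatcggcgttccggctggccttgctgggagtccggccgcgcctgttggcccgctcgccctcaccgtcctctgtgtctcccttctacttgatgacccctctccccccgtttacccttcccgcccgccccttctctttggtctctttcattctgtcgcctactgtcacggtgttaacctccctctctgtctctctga

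CRADD-AS1 had TATAAA starting 5 bases after its RefSeq start and again, on the other strand, 153 bases before it, and a TGATAA 133 bases before it. STEAP1B-AS1 had a CCAAT 229 bases and a TGATAA 76 bases before its start, both on the other strand, and PITX1-AS1 had a CACGTG 164 bases before its start. EPHA1-AS1 had none of the 4, and its window runs over a coding exon of EPHA1. The windows differed in CG dinucleotides, of which PITX1-AS1 had 28, STEAP1B-AS1 7, CRADD-AS1 2 and EPHA1-AS1 1. The window of RAB4A-AS1, not printed here, had 44. A promoter in the RefSeq table was found for 259 of the antisense RNAs, and their median was 25 CG dinucleotides, against 14 over all 35116 promoters of the table. Of those 259 windows 5.02% held TATAAA, against 11.5% of all promoters, 10.0% held CACGTG (7.26%), 32.0% held CCAAT (34.6%) and 4.63% held TGATAA (7.53%). The 237 matched sense partners were much alike, with a median of 27 CG dinucleotides. Of these 5.06% held TATAAA, 11.0% CACGTG, 31.6% CCAAT and 2.95% TGATAA. For matched genes 1 promoter per symbol was taken, while all promoters means every promoter of the RefSeq table. Among the 42 matched antisense RNAs that were at least 2-fold higher with the SMC1A guide, 4.76% held TATAAA, 11.9% CACGTG, 31.0% CCAAT and 7.14% TGATAA, with a median of 23.5 CG dinucleotides. These are matches of letters and say nothing of which factors bind.

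Most antisense RNAs were low. The median was 109 counts over both libraries and the range 20 to 3915, with 165 members at 20 to 99 counts, 132 from 100 to under 500 and 41 at 500 or more. At the lower edge of the rule, CACTIN-AS1 had 17 counts with the SMC1A guide and 3 with the control guide, while ADD3-AS1, with 17 and 2, fell just outside. No member was at 0 in either library, and 8 had under 10 counts with the SMC1A guide against 30 with the control guide. GENCODE 29 lists 335 members, 261 of them typed as antisense, 34 as lincRNA, 31 as processed transcript, 6 as bidirectional promoter lncRNA, 2 as protein-coding (KRT10-AS1 and DOCK8-AS1, under older names) and 1 as a transcribed unitary pseudogene. ASMTL-AS1, which has copies on X and Y, has 2 rows among the members, so the 338 members hold 337 symbols. The rows of ASMTL-AS1 share their reads and are uncertain.

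Summed over all members, antisense RNAs took 43715 counts with the SMC1A guide and 41077 with the control guide, which is 0.259% of the counts (exact 95% interval 0.257 to 0.262) and 0.224% (0.222 to 0.226). The log2 ratio of scaled CPM (SMC1A guide over control guide, prior count 1) was above 0 for 213 of the 338 members (63.0%), against 49.2% of all 14255 genes with 20 or more counts. The median log2 ratio was 0.26 (quartiles -0.19 and 0.77), and -0.01 over all genes. At least 2-fold higher with the SMC1A guide were 54 antisense RNAs (16.0%), beside 9.55% of all genes, and at least 2-fold lower were 10 (2.96%), beside 3.63% of all genes. The other 274 lay within 2-fold.

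The share differed with the counts. Over all genes, those with 20 to 99 counts passed 2-fold most often, and antisense RNAs are mostly low, so the shares were read within ranges of counts. All genes here include the antisense RNAs. With 20 to 99 counts 35 of 165 antisense RNAs were at least 2-fold higher (21.2%), against 26.6% of all genes of that range, and 5 were lower (3.03%, against 8.69%). From 100 to under 500 counts 19 of 132 were higher (14.4%, against 13.1%) and 4 were lower (3.03%, against 4.25%). With 500 or more counts 0 of 41 were higher (2.36% of all genes) and 1 was lower (2.44%, against 1.65%). With 100 or more counts in all, 19 of 173 antisense RNAs were higher (11.0%) and 5 lower (2.89%), against 5.12% and 2.31% of all genes, but 41 of these 173 antisense RNAs and 8423 of those 11319 genes had 500 or more counts. Within each of the 3 ranges the share of higher antisense RNAs was thus near or below that of all genes.

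The medians by range stood closest at low counts and differed most in the middle range. They were 0.37 for antisense RNAs and 0.31 for all genes at 20 to 99 counts, 0.32 and 0.15 from 100 to under 500, and -0.01 and -0.10 at 500 or more. The counting interval lay wholly above 0 for 119 members, wholly below 0 for 39 and across 0 for 180. The matching shares of all genes were not computed, so these counts do not set antisense RNAs apart. Of all genes 62.7% lay above 0 at 20 to 99 counts and 61.1% from 100 to under 500. The counting interval lay wholly past 2-fold for 17 higher members (4.44% of all genes did so) and 2 lower members (1.46% of all genes). Of the 54 members called higher, 18 had under 10 counts in the control library, and of the 10 called lower, 4 had under 10 counts with the SMC1A guide.

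**Figure D1:**
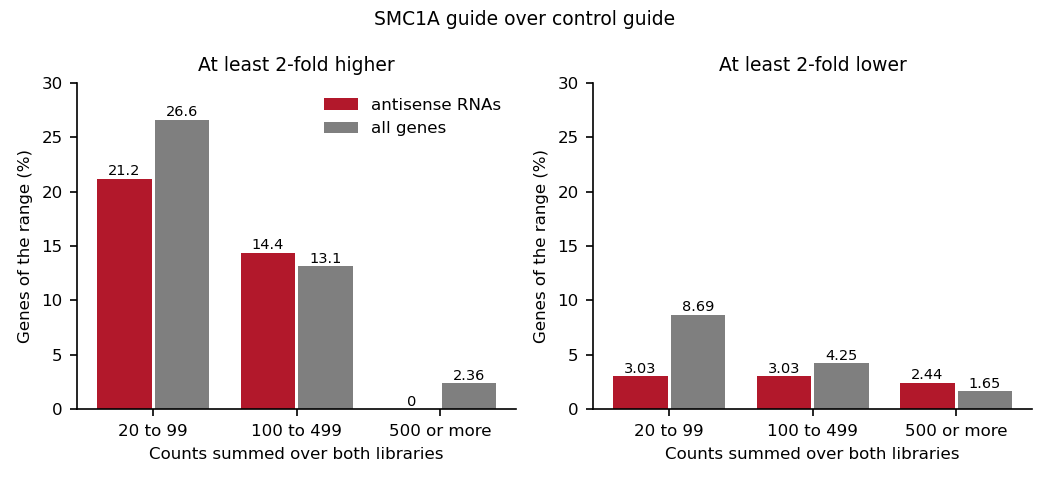
Share of genes (%, linear axes from 0) at least 2-fold higher (left) and at least 2-fold lower (right) with the SMC1A guide, for antisense RNAs (red) and all genes (grey), by counts summed over both libraries. The red bars stand near or below the grey ones on the left, at 21.2% against 26.6% for 20 to 99 counts and 14.4% against 13.1% in the middle range.

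Other non-coding RNAs, grouped by symbol, were compared in the same way. Divergent transcripts (ending in -DT), which start beside a coding gene on the opposite strand, were at least 2-fold higher in 31 of 184 cases (16.8%), with a median log2 ratio of 0.15. RNAs named LINC were higher in 27 of 181 (14.9%), with a median of 0.25. The SNHG genes, which host small nucleolar RNAs in their introns, were higher in 0 of 22, with a median of -0.63, and 17 of them had 500 or more counts. The pooled shares of antisense, -DT and LINC RNAs were close, and their order differed by range of counts. At 20 to 99 counts 21.2% of antisense RNAs were higher, against 21.95% of 123 -DT and 26.25% of 80 LINC RNAs. From 100 to under 500 counts 14.4% of antisense RNAs were higher, against 8.70% of 46 -DT and 8.33% of 60 LINC RNAs. All genes of that range stood at 13.1%, and the -DT and LINC shares rest on 4 and 5 RNAs. With 500 or more counts 0 of 41 antisense, 0 of 15 -DT and 1 of 41 LINC RNAs were higher. In that range, which holds most SNHG genes, the median was -0.01 for antisense RNAs and -0.68 for the 17 SNHG genes.

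The median sense partner lay at the median of all genes. The partners number 279, since PTOV1 has 2 antisense RNAs and ASMTL-AS1 has 2 rows, for its copies on X and Y. The partners' median log2 ratio was -0.01, against 0.26 for the antisense RNAs. With the trend of the ratio with expression level removed, the medians were 0.0551 and 0.0500, so that gap was no longer there. Of the partners 19 were at least 2-fold higher (6.81%, beside 9.55% of all genes) and 7 lower (2.51%, beside 3.63%). They are also the more abundant genes, with 500 or more counts in 204 of 279, and in that range 4.90% of partners were higher, against 2.36% of all genes, and 0.980% were lower, against 1.65%. For 54 antisense RNAs the partner had under 20 counts, of which 26 partners were at 0, and 3 members (HOXB-AS1, HOXA-AS2 and TRG-AS1) have no gene of their stem.

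Antisense RNA and sense partner moved together only a little more often than apart. Both ratios lay on the same side of 0 in 157 of 281 pairs (55.9%), in 99 pairs above and in 58 below. In 82 pairs the antisense RNA was above 0 and its partner below, and in 42 pairs the reverse held. Across the 281 pairs the Spearman correlation of the log2 ratios was 0.19 and Pearson's r 0.24. Without the EPHA1 pair, whose ratio rests on a count of 0, these were 0.18 and 0.15 over 280 pairs. All pairs share both libraries and the same scaling, so these correlations only describe them. With 100 or more counts in both genes, which holds for 126 pairs, the same side of 0 was shared by 52.4% and the Spearman correlation was 0.25.

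For comparison, each antisense RNA was set beside the nearest other protein-coding gene, at a median gap of 19318 bases and with 43 of 279 overlapping it. The Spearman correlation with that neighbour was 0.11, against 0.19 with the sense partner over the same 279 pairs. Neighbour and antisense RNA lay on the same side of 0 in 54.1% of cases, and sense partner and antisense RNA in 55.9%.

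Beside a large change of the antisense RNA most partners lay within 2-fold, as most partners did in any case. Of all partners 253 of 279 lay within 2-fold, and of all genes 12377 of 14255. When the antisense RNA was at least 2-fold higher (43 pairs), the partner's median log2 ratio was 0.08 and 38 partners lay within 2-fold. When the antisense RNA was at least 2-fold lower (9 pairs), the partner's median was -0.36 and 7 partners lay within 2-fold. Seen from the other side, the antisense median was 0.63 where the partner was at least 2-fold higher (19 pairs), -0.48 where it was lower (7 pairs) and 0.27 where it lay within 2-fold (255 pairs). Both genes were at least 2-fold higher in 5 pairs and at least 2-fold lower in 2, and in 0 pairs did they pass 2-fold in opposite directions. With so few partners past 2-fold, few pairs of either kind could arise.

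**Figure D2:**
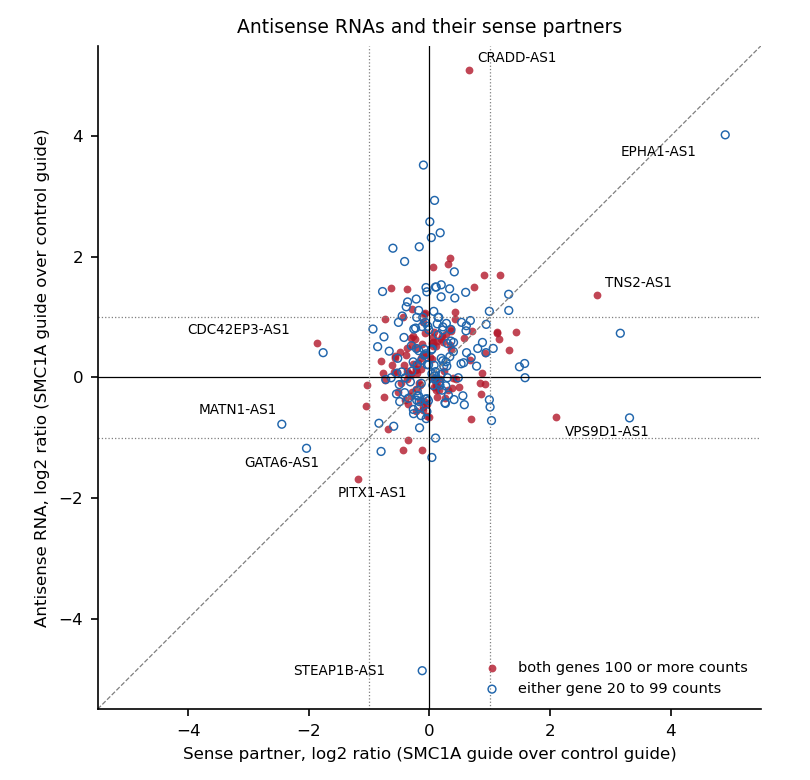
Each point is 1 of 281 pairs, with the log2 ratio (SMC1A guide over control guide) of the sense partner on the x axis and of its antisense RNA on the y axis; filled points have 100 or more counts in both genes, and dotted lines mark 2-fold. Most points spread upward along the y axis at partner ratios near 0, and the corners past 2-fold in opposite directions are empty.

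The ratio of antisense to sense counts within a pair does not depend on how the libraries are scaled. It is not free of the trend with expression level, since antisense RNAs are mostly low and 204 of 279 partners had 500 or more counts. Over all genes the median log2 ratio was 0.31 at 20 to 99 counts and -0.10 at 500 or more. The counts of pairs given next were not repeated with that trend removed. The within-pair ratio was higher with the SMC1A guide, by a 95% interval wholly above 1, in 87 pairs, and lower in 31. The interval lay wholly past 2-fold upward in 13 pairs and downward in 4. For PSMG3-AS1 and PSMG3, which encodes a proteasome assembly chaperone, it was 4.40-fold higher (interval 3.24 to 6.05), and for MKLN1-AS and MKLN1 3.17-fold higher (2.33 to 4.40).

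Position was compared next, from GENCODE 29. The genes of a pair lie on opposite strands in every pair with coordinates for both, and their exons overlap in 209. How the counting used strand is not given in the sources used here. In those 209 pairs reads of the shared exon bases may therefore have been divided between the antisense RNA and the sense gene. How many were cannot be told from the counts. Pairs with overlapping exons lay on the same side of 0 in 53.1% of cases, with a Spearman correlation of 0.14. Pairs whose spans overlap without shared exon bases (n = 45) did so in 60.0%, with a correlation of 0.31, and head-to-head pairs, which start near each other and run apart (n = 21), in 71.4%, with a correlation of 0.30. With 100 or more counts in both genes 10 head-to-head pairs remained, of which 60.0% shared a side of 0, with a correlation of 0.11 (Pearson's r 0.01). The head-to-head pairs were also the ones with the lowest medians, -0.09 for the antisense RNAs and -0.18 for the partners, against 0.27 and -0.01 where exons overlap and 0.37 and 0.08 where only spans overlap. No test of these differences was possible. The distance between the starts gave no steady order, since the same side of 0 was shared by 53.1% of 113 pairs with starts within 1 kb, 69.8% of 53 pairs at 1 to 10 kb and 51.4% of 111 pairs farther apart.

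**Figure D3:**
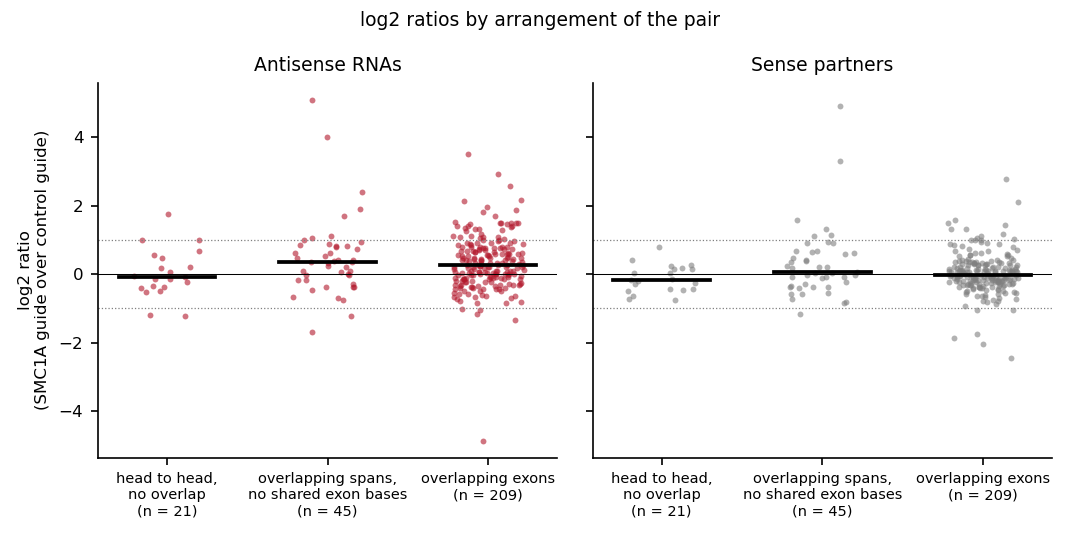
log2 ratios (SMC1A guide over control guide) of antisense RNAs (left, red) and sense partners (right, grey) by the arrangement of the pair; each point is 1 gene, bars are medians and dotted lines mark 2-fold. The bar of the antisense RNAs lies at -0.09 for head-to-head pairs, 0.37 for overlapping spans and 0.27 for overlapping exons, and the partners' bars lie at -0.18, 0.08 and -0.01.

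CRADD-AS1 had the highest ratio of all 338. It had 136 counts (7.71 CPM) with the SMC1A guide and 3 counts (0.171 CPM) with the control guide, so that its control level was at the limit that a count of 0 allows. The CPM ratio was 45.1 (95% interval 15.1 to 221) and the log2 ratio with the prior count 5.09 (3.92 to 7.79). CRADD-AS1 (ENSG00000258274.1, chromosome 12, 93707791 to 93737823, minus strand, GRCh38) lies inside the span of CRADD on the other strand without sharing exon bases, and its start is 60448 bases from that of CRADD. CRADD, which encodes a death-domain adaptor that can activate caspase-2, had 387 and 245 counts with the SMC1A guide and the control guide, a log2 ratio of 0.65 (0.42 to 0.89). Both genes were thus higher, and the antisense RNA had 35.1 counts per 100 CRADD counts with the SMC1A guide, against 1.22 with the control guide. The other genes within 250 kb lay within 2-fold. SOCS2, a suppressor of cytokine signalling, was at 0.35, its antisense RNA SOCS2-AS1 at 0.48 and MRPL42, a mitochondrial ribosomal protein gene, at -0.24.

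EPHA1-AS1 had the next highest ratio, and its partner moved with it. EPHA1-AS1 had 276 counts (15.6 CPM) with the SMC1A guide and 16 counts (0.912 CPM) with the control guide, a log2 ratio of 4.02 (3.38 to 4.93). EPHA1, a receptor tyrosine kinase for ephrins, had 29 counts with the SMC1A guide and 0 with the control guide. Set against the 3 counts that a 0 in the control library allows, 29 counts were 9.62-fold higher. That figure leaves out the counting error of the 29. The counting interval of EPHA1 began at a log2 ratio of 2.87 and had no upper bound. The fitted log2 ratio of 4.90 for EPHA1 depends on the prior count. The pair shares no exon bases in GENCODE 29. EPHA1-AS1 (ENSG00000229153.7) covers chromosome 7, 143407813 to 143523449 on the plus strand, EPHA1 covers 143390289 to 143408892 on the minus strand, and the starts are 1079 bases apart. With the SMC1A guide the antisense RNA had 2.94 CPM per kb of exon and EPHA1 0.347.

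The surroundings of EPHA1-AS1 held further genes with high ratios. TCAF2, a regulator of the TRPM8 channel, had 232 and 48 counts with the SMC1A guide and the control guide (log2 ratio 2.24, 1.81 to 2.75). FAM131B-AS2 had 135 and 50 counts (1.41), and ZYX, the focal adhesion gene zyxin, 2074 and 1273 (0.70). GSTK1 at 0.18 and CASP2 at -0.12, at lower coordinates, lay near their control level.

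**Figure D4:**
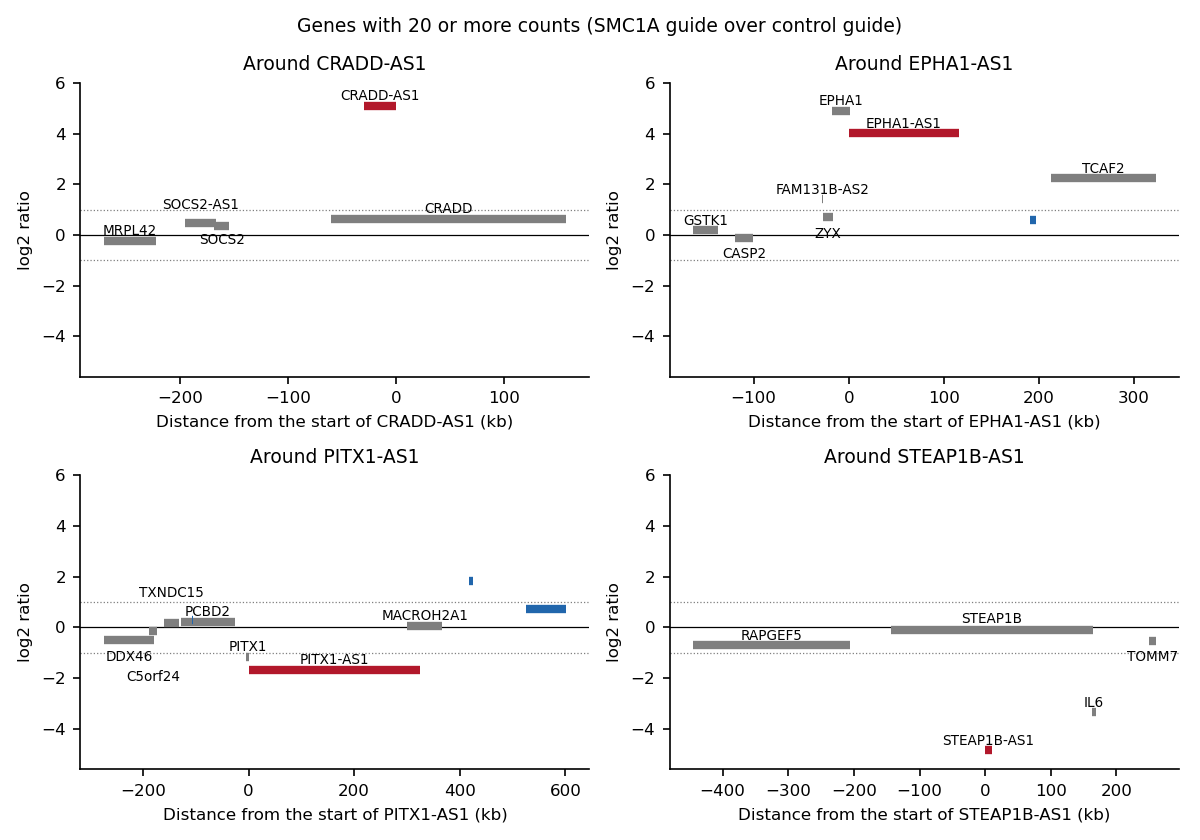
log2 ratios (SMC1A guide over control guide, y axis) of genes with 20 or more counts within 250 kb of 4 antisense RNAs, drawn at their annotated spans by distance in kb from the start of the antisense RNA (red); other genes are grey, and blue bars are pseudogenes and genes without a symbol. Around EPHA1-AS1 also EPHA1, TCAF2 and FAM131B-AS2 lie above 2-fold, and around CRADD-AS1 no other gene passes 2-fold. PITX1 lies below 2-fold beside PITX1-AS1, and IL6 lies below 2-fold near STEAP1B-AS1.

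Among the next highest antisense RNAs with 100 or more counts, 3 had partners with log2 ratios between 0.05 and 0.33. MKLN1-AS had 213 counts (12.1 CPM) with the SMC1A guide and 53 (3.02 CPM) with the control guide, a log2 ratio of 1.98 (1.56 to 2.46), while MKLN1, which encodes the ubiquitin ligase subunit muskelin, had 2652 and 2095 counts (0.33). PPM1F-AS1 had 127 and 35 counts (1.82, 1.30 to 2.44), and the phosphatase gene PPM1F 6543 and 6280 (0.05). UXT-AS1 had 99 and 26 counts (1.88, 1.29 to 2.60), and UXT, which encodes a prefoldin-like protein, 705 and 569 (0.30). Within these pairs the antisense counts per sense count were 3.17, 3.48 and 3.07 times higher with the SMC1A guide. Their exons overlap by 8 bases in the MKLN1 pair, 815 in the PPM1F pair and 329 in the UXT pair.

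A second group of high antisense RNAs had partners that were higher too. SBF2-AS1 had 87 and 26 counts with the SMC1A guide and the control guide (1.70, 1.09 to 2.43), and SBF2, a myotubularin-related gene, 355 and 156 (1.17, 0.90 to 1.46). JMJD1C-AS1 had 81 and 28 counts (1.49), and JMJD1C, of the jumonji histone demethylase family, 1906 and 1140 (0.73). In TNS2-AS1 the partner moved more, with 97 and 37 counts of the antisense RNA (1.36, 0.82 to 1.97) and 178 and 25 counts of TNS2 (2.78, 2.22 to 3.49), which encodes the focal adhesion protein tensin-2.

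In the third group the partner was lower. PSMG3-AS1 had 182 and 64 counts with the SMC1A guide and the control guide (1.49, 1.08 to 1.93), and PSMG3 651 and 1009 (-0.64, -0.78 to -0.50). PAXIP1-AS2 had 82 and 29 counts (1.46, 0.87 to 2.16), and PAXIP1, which encodes a BRCT-domain protein of the DNA damage response and of histone methyltransferase complexes, 826 and 1068 (-0.38). SGMS1-AS1, named after its values were seen, had 127 and 64 counts (0.97), and the sphingomyelin synthase gene SGMS1 845 and 1400 (-0.74). The starts of PSMG3-AS1 and PSMG3 are 932 bases apart and those of SGMS1-AS1 and SGMS1 212.

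**Figure D5:**
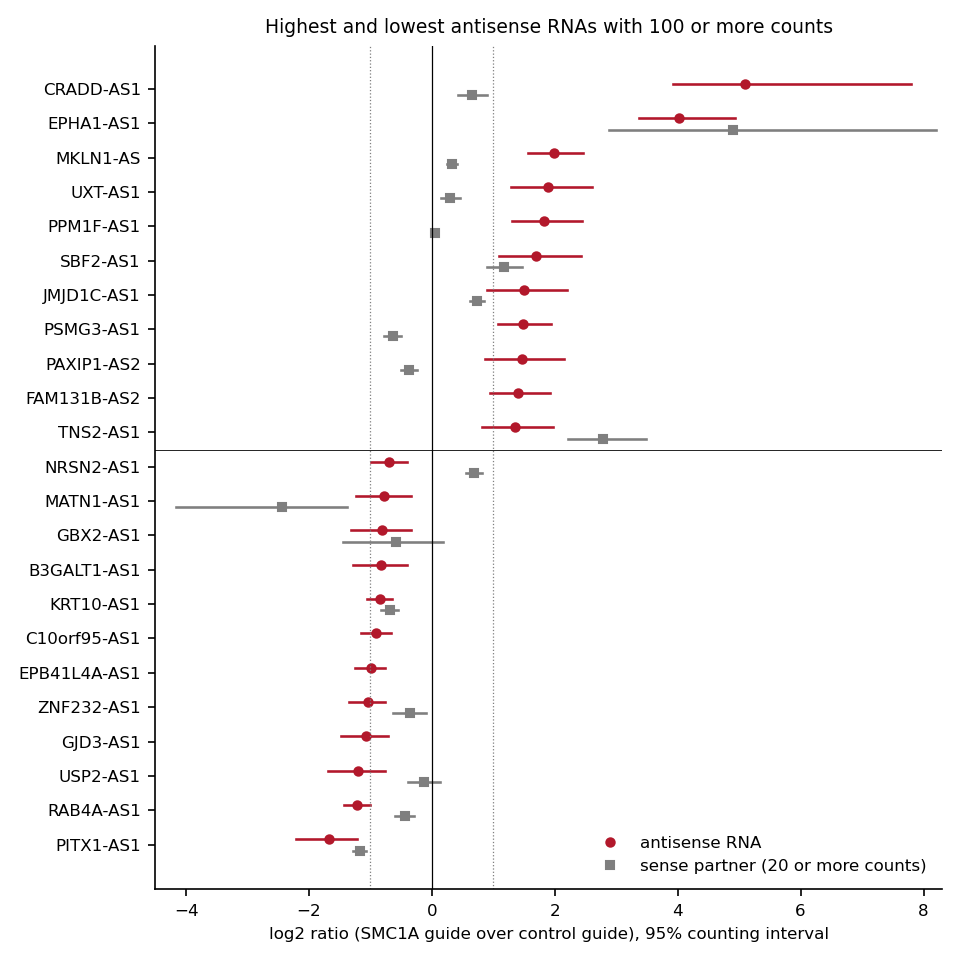
log2 ratios (SMC1A guide over control guide, x axis) with 95% counting intervals of the highest and lowest antisense RNAs with 100 or more counts that are reported here (red circles) and of their sense partners with 20 or more counts (grey squares). Dotted lines mark 2-fold; EPHA1 has 0 control counts, so its point depends on the prior count and its interval, which has no upper bound, is drawn only to the edge.

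Among the lowest antisense RNAs with 100 or more counts, 5 passed 2-fold. PITX1-AS1 had 47 counts (2.66 CPM) with the SMC1A guide and 152 (8.66 CPM) with the control guide, a log2 ratio of -1.68 (-2.21 to -1.22). PITX1, a homeobox transcription factor of hindlimb development, had 928 and 2089 counts (-1.18, -1.29 to -1.07), so both genes of the pair were at least 2-fold lower. PITX1-AS1 (ENSG00000224186.8, chromosome 5, 135033280 to 135358219, plus strand) starts 1533 bases from the PITX1 start, inside the PITX1 span, and shares no exon bases with it. MACROH2A1, the histone variant gene at the far end of PITX1-AS1, was at 0.05, PCBD2 at 0.22 and TXNDC15 at 0.18, and no other protein-coding gene with 20 or more counts within 250 kb was at least 2-fold lower, the lowest being DDX46 at -0.52.

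RAB4A-AS1 and USP2-AS1 start head to head with their partners. RAB4A-AS1 had 251 and 580 counts with the SMC1A guide and the control guide (-1.21, with an interval wholly below 0), and RAB4A, a small GTPase gene of endosomal recycling, 551 and 747 (-0.45, -0.61 to -0.29). Per kb of exon, RAB4A-AS1 had 12.3 CPM with the SMC1A guide and 28.6 CPM with the control guide, and RAB4A 9.44 and 12.9 CPM, so the antisense RNA was the higher gene of the pair by this measure in both libraries. Their annotated starts are 34 bases apart in GENCODE 29. USP2-AS1 had 58 and 134 counts (-1.20, -1.69 to -0.76), and the deubiquitinase gene USP2 236 and 257 (-0.13, -0.39 to 0.13), with starts 52 bases apart.

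The remaining low antisense RNAs were ZNF232-AS1 with 143 and 295 counts (-1.05) and GJD3-AS1 with 87 and 184 (-1.08) past 2-fold, and 7 that were lower by under 2-fold. When libraries were scaled by their totals, ZNF232-AS1 and GJD3-AS1 lay at -0.92 and -0.95, within 2-fold. KRT10-AS1 had 309 and 556 counts (-0.85), and the keratin gene KRT10 675 and 1081 (-0.69), so this pair moved alike. MATN1-AS1 had 67 and 115 counts (-0.78), and the cartilage matrix gene MATN1 6 and 37 (-2.45). NRSN2-AS1 went the other way from its partner, with 163 and 263 counts (-0.69, -0.99 to -0.41) beside 1240 and 766 counts of the neurensin gene NRSN2 (0.69, 0.56 to 0.82), a pair without shared exon bases. GBX2-AS1, B3GALT1-AS1, C10orf95-AS1 and EPB41L4A-AS1 had 58, 70, 223 and 212 counts with the SMC1A guide, against 102, 124, 416 and 422 counts with the control guide.

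The lowest ratio of all members belonged to a low-count gene named after its values were seen. STEAP1B-AS1 (ENSG00000232759.1, chromosome 7, 22563337 to 22573996, plus strand) had 1 count with the SMC1A guide and 57 with the control guide, a log2 ratio of -4.86 (-11.17 to -3.30). STEAP1B, in whose span it lies and with which it shares 915 exon bases, had 677 and 732 counts (-0.12, -0.27 to 0.03). IL6, a cytokine gene whose span overlaps the start of STEAP1B, had 6 and 70 counts (-3.35, -5.05 to -2.36). RAPGEF5, an exchange factor gene for Rap GTPases, was at -0.71 and TOMM7, of the mitochondrial import complex, at -0.53.

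Other extreme ratios rest on few control counts and were likewise named after their values were seen. IDH1-AS1 had 22 counts with the SMC1A guide and 1 with the control guide, a CPM ratio of 21.9 with an interval of 3.54 to 903, while IDH1, the cytosolic isocitrate dehydrogenase gene, had 877 and 935 counts (-0.10). RAP2C-AS1 had 22 and 2 counts, a ratio of 10.9 (2.69 to 96.0), and RAP2C 646 and 606. RUSC1-AS1 had 23 and 3, a ratio of 7.63 (2.30 to 39.7), and RUSC1 534 and 529. The partners of these low antisense RNAs thus lay near their control level, as did BRPF3 (1526 and 1342 counts, 0.18) beside BRPF3-AS1 (36 and 6, 2.40).

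Of the 7 pairs in which both genes passed 2-fold, 3 (SBF2, TNS2 and PITX1) had 100 or more counts in each gene. The EPHA1 pair and pairs named after their values were seen are among the rest. PRSS23-AS1 had 25 and 11 counts with the SMC1A guide and the control guide (1.11), and the serine protease gene PRSS23 29 and 11 (1.31). GATA6-AS1 had 7 and 17 counts (-1.18, -2.80 to 0.06), and GATA6, a zinc-finger transcription factor gene, 34 and 142 (-2.04, -2.65 to -1.52). The interval of GATA6-AS1 spans 0, so its call rests on few counts.

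Partners could also move by 2-fold while the antisense RNA did not. The intermediate filament gene VIM had 11077 and 5058 counts with the SMC1A guide and the control guide (1.12, 1.08 to 1.17), and VIM-AS1 110 and 65 (0.74, 0.30 to 1.22), so both were higher. NR2F2, which encodes the nuclear receptor COUP-TFII, had 5141 and 2363 counts (1.11), and NR2F2-AS1 88 and 52 (0.74, 0.24 to 1.27). In these pairs the antisense counts per sense count did not move beyond counting error, with ratios of 0.773 (0.563 to 1.07) and 0.778 (0.544 to 1.12). The pairs named here beside VIM, which is in the list of studied antisense RNAs, were chosen after their values were seen.

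For other partners, also named after their values were seen, the antisense RNA lagged behind. C1RL, a complement-related protease gene, had 398 and 145 counts (1.44), and C1RL-AS1 206 and 122 (0.74). BAZ2B, a bromodomain gene, had 1151 and 461 counts (1.31), and BAZ2B-AS1 90 and 65 (0.46, -0.01 to 0.95). GP6, the platelet collagen receptor gene, had 626 and 207 counts (1.58), and GP6-AS1 18 and 18 (-0.01, -1.03 to 1.02). RNF213, a large ubiquitin ligase gene, had 3731 and 1319 counts (1.49), and RNF213-AS1 16 and 14 (0.17). Here the antisense counts per sense count were lower with the SMC1A guide, from 0.616 times for C1RL to 0.331 times for GP6.

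Where the partner was at least 2-fold higher, the antisense RNA lay on the other side of 0 in 5 of 19 pairs. Where the partner was at least 2-fold lower, it did so in 2 of 7 pairs. Of these, the VPS9D1 and CDC42EP3 pairs are given, named after their values were seen. VPS9D1, which carries a VPS9 domain of Rab exchange factors, had 163 and 37 counts with the SMC1A guide and the control guide (2.10, 1.61 to 2.69), and VPS9D1-AS1 460 and 721 (-0.65, -0.83 to -0.49). CDC42EP3, an effector gene of the GTPase CDC42, had 37 and 137 counts (-1.87, -2.46 to -1.36), and CDC42EP3-AS1 120 and 80 (0.57, 0.16 to 1.00). The antisense counts per sense count were 0.145 times the control value in the VPS9D1 pair (0.0967 to 0.213) and 5.53 times in the CDC42EP3 pair (3.42 to 9.06). Exons overlap in both pairs. Where the focal adhesion gene PXN was lower (594 and 1212 counts, -1.04), PXN-AS1 had 128 and 139 (-0.13), and where PROSER2 was lower (144 and 299, -1.06), PROSER2-AS1 had 718 and 999 (-0.48). The PXN and PROSER2 pairs were likewise named after their values were seen.

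The 6 antisense RNAs with the most counts all lay within 2-fold of their control level. OIP5-AS1, a cytoplasmic RNA also known as cyrano, had 1869 and 2046 counts with the SMC1A guide and the control guide (106 and 117 CPM, log2 ratio -0.14). FGD5-AS1 had 1794 and 1617 counts (0.14), and its partner FGD5 was at 0. TP73-AS1 had 1173 and 1265 counts (-0.12, or 0.01 by library totals), while TP73, a member of the p53 family, had 312 and 164 (0.92, 0.64 to 1.20). GABPB1-AS1 had 1333 and 951 counts (0.48, 0.36 to 0.60), and GABPB1, a subunit gene of the transcription factor GABP, 373 and 481 (-0.37, -0.57 to -0.18). THAP9-AS1 had 863 and 880 counts (-0.04, or 0.09 by library totals), and AFAP1-AS1 684 and 1034 (-0.60). The intervals of GABPB1-AS1 and AFAP1-AS1 do not reach 0.

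A list of well-studied antisense RNAs had 26 names with a row, of which 16 had 20 or more counts. Of the 16, 1 was at least 2-fold higher, 2 were lower and 7 lay above 0, beside 9.55%, 3.63% and 49.2% of all genes. Their median log2 ratio was -0.09, and 9 of the 16 had 500 or more counts, a range in which the median of all antisense RNAs was -0.01. TMPO-AS1 was the higher one, with 161 and 76 counts (1.07, 0.67 to 1.49), beside 5941 and 6192 counts of TMPO, a gene of lamina-associated proteins (-0.07, or 0.06 by library totals). FOXN3-AS1, with 8 and 20 counts (-1.23), and GATA6-AS1 were the lower ones, and both lay within 2-fold with a prior count of 5 (-0.95 and -0.88). WT1-AS had 190 and 120 counts (0.65), and the zinc-finger transcription factor gene WT1 765 and 511 (0.57). PSMA3-AS1 had 722 and 553 counts (0.38), and the proteasome subunit gene PSMA3 1297 and 1685 (-0.38). GATA2-AS1 had 369 and 349 counts (0.07), and GATA2, a hematopoietic transcription factor gene, 2149 and 2741 (-0.36). MCM3AP-AS1 at -0.66, MAPKAPK5-AS1 at -0.57, BACE1-AS at -0.52, ZEB1-AS1 at -0.21 and TTN-AS1 at 0.18 complete the measured part of the list.

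The antisense RNAs of the HOX clusters, which lie among the homeobox genes that pattern the body axis, were mostly unmeasured. Of 10 such RNAs with a row, 2 had 20 or more counts, both were above 0 and 1 was at least 2-fold higher, beside 49.2% and 9.55% of all genes. HOXA-AS2 had 36 and 3 counts with the SMC1A guide and the control guide, a CPM ratio of 11.9 (3.77 to 60.6), and HOXB-AS1 had 61 and 34 (log2 ratio 0.82). HOXC-AS1, 1 count under the threshold, went the other way with 6 and 13 counts (log2 ratio -1.01).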

How the data were processed

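For both libraries the authors deposited estimated counts of each gene in 1 unscaled table. Its values are whole numbers, so the estimated counts had been rounded before deposit. The tools named are Salmon 1.10.1, STAR 2.7.10a and DESeq2 1.42.1, with hg38 (GRCh38), per the submitters' processing notes. Not given in the sources used here are their roles, the annotation and the use of strand in counting. Salmon divides reads shared by overlapping or near-identical transcripts, which bears on antisense pairs.

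Libraries were scaled by TMM (edgeR 4.0.16, R 4.3.3), and log2 ratios of CPM used a prior count of 1. Ratios have exact Clopper-Pearson 95% intervals, and the antisense counts per sense count have exact conditional intervals of the odds ratio. Intervals, and the floor of 3 counts for a count of 0 (0.170 CPM with the SMC1A guide, 0.171 CPM with the control guide), cover counting error only, since reads had no molecular identifiers. With 1 library per guide no test across samples could be made. Other steps (pandas 2.3.3, scipy 1.17.1 and numpy 2.4.6 in Python 3.11.15) were tested on simulated data. DESeq2 1.42.0 gave size factors for an alternative.

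A member counts as higher or lower at 2-fold. Coordinates, arrangements and exon lengths come from GENCODE 29 and promoters from RefSeq (GRCh38.p14). The named genes are the 12 highest and 12 lowest antisense RNAs with 100 or more counts, the 6 with the most counts, pairs in which both genes have 100 or more counts and pass 2-fold, and 2 lists, of well-studied and of HOX antisense RNAs. Some results, 1 of the 12 highest among them, are not reported here. The members and lists were chosen with earlier results of these data known. Alternatives changed the scaling, the prior count, the filter, the fold and the choice of pairs.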

Additional observations from a re-analysis of the deposited data

How the results depend on the processing

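The count of antisense RNAs at least 2-fold higher (54 of 338) was 182 of 732 without a filter and 84 of 428 at 10 counts. It was 31 of 244 at 50 counts and 19 of 173 at 100 (5.12% of all genes). Of the 338 it was 17 where the whole interval had to pass 2-fold (4.44% of all genes) and 111 at 1.5-fold. The count at least 2-fold lower (10) was 102, 20, 6, 5 (2.31% of all genes), 2 (1.46%) and 31 under the same settings. Shares of all genes were not computed without a filter, at 10 or 50 counts, or at 1.5-fold. Those counts, higher or lower, therefore do not set antisense RNAs apart. The lower count was 19 with the trend of the ratio with expression level removed by a running median over genes. That alternative was added after seeing the data. Under that alternative 39 antisense RNAs (11.5%) were higher and 19 (5.62%) lower, beside 7.91% and 5.04% of all genes. By range of counts the higher share was 15.2% (20.5% of all genes) at 20 to 99 counts, 10.6% (10.0%) from 100 to under 500 and 0% (2.80%) at 500 or more. The median log2 ratio of antisense RNAs (0.26) was 0.48 without a filter, 0.14 at 100 counts and 0.0500 with the trend removed. That of the sense partners (-0.01) lay above 0 by library totals (0.12), by the upper quartile (0.0071), without a filter (0.0519), at 10 counts (0.0382) and with the trend removed (0.0551), where it no longer lay below that of the antisense RNAs. Library totals shift the median of all genes by 0.13.

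Using only pairs without overlapping exons (n = 68), 63.2% shared a side of 0, against 55.9%, with a Spearman correlation of 0.37, against 0.19. Pairs in which both genes pass 2-fold in the same direction (7 of 281) numbered 34 of 638 without a filter and 13 of 363 at 10 counts. They numbered 4 of 188 at 50 counts and 3 of 126 at 100. With the whole interval past 2-fold there were 2 of 281, at 1.5-fold 27 of 281, and without overlapping exons 3 of 68. Those in opposite directions (0 of 281) numbered 15 of 638 without a filter, 10 of 281 at 1.5-fold and 1 of 281 with the trend removed. The cause of these shifts was not tested beyond the settings themselves. Of 468 values of the 78 named genes and partners under other scalings and priors, 453 stayed within counting error of the reported value, 15 moved and 0 of the called ones turned sign. TP73-AS1, THAP9-AS1, TMPO and MCM3AP, all within 2-fold, changed sign by library totals, MCM3AP to 0.11 and by the upper quartile to 0.00, while TP73 (1.04) passed 2-fold by library totals. No paired analysis was possible because each guide has 1 library. With 1 library per guide nothing here separates the guide from any other difference between the 2 cultures, and for low antisense RNAs the counts limit what can be seen.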
